A study of Mus musculus with 42 samples.

Results

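The collagen genes were examined in 12 RNA-seq libraries of purified mouse spermatogonia. Genes were taken by symbol (Col, a type number, a, and a chain number) from a table of 27179 genes, and 44 genes carried such a symbol. Of these, 43 had a mean of at least 10 counts over the 12 libraries and form the set described here, while *Col10a1*, with a mean of 6.33 counts, was left out. The set held 11 fibrillar collagens, 8 basement membrane collagens and 24 other collagens, and all 43 passed the filter on low counts in every comparison. A stricter mean of 50 counts would have kept 40 of them.

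The study examined the chromatin remodeler CHD8 in male germ cells. Spermatogonia of C57BL/6J male mice at 10 days post-partum (dpp) were purified with magnetic beads, first on c-Kit, which marks differentiating spermatogonia, and then on Thy1 from the cells that passed the first column, which marks undifferentiated spermatogonia. Control mice were *Ddx4-Cre*; *Chd8* +/F and mutant mice were *Ddx4-Cre*; *Chd8* F/-, with 3 libraries for each of the 4 groups of genotype and cell fraction. The labels tie no library to an animal, so p-values measure only the spread between these libraries, which may be technical. Every mouse carried the Cre transgene and a floxed *Chd8* allele. The *Ddx4* promoter drives Cre in germ cells, whereas the null allele of the mutant is present in its somatic cells as well, and the protocol included collagenase digestion, straining and plating to remove interstitial, Sertoli and other adherent cells.

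Library totals ran from 32266861 to 45396233 counts. The *Thy1* gene was higher in control Thy1+ than in control c-Kit+ libraries by 4.22 ± 0.28 on the log2 scale (SE, n = 3 and 3) and *Kit* was lower by 1.19 ± 0.25 (edgeR adjusted p = 2.38e-05 and 0.00701), as the fractions are named. Counts over the whole *Chd8* gene differed between genotypes by 0.06 ± 0.07 in c-Kit+ and 0.03 ± 0.09 in Thy1+ libraries (adjusted p = 0.491 and 0.896), and gene-level counts cannot check the loss of the floxed exons. Markers of somatic testis cells were present in every group, and the 12 Sertoli cell markers summed to 2643 and 3468 CPM (counts scaled to TMM-adjusted library size) in replicate 1 of control and mutant Thy1+ cells against 549 to 1157 CPM in the other 4 Thy1+ libraries. Log2 fold changes of *Col18a1* are also given with libraries left out, while marker counts, sums and shares include every library of their groups.

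Collagens are secreted proteins whose chains wind around each other into a long helix. Fibrillar collagens assemble into the cross-striated fibers of connective tissue, type IV collagens form the sheet-like network of basement membranes, and the remaining types coat fibrils, build beaded filaments, anchor epithelia or span the cell membrane. In the testis, the basement membrane of the seminiferous tubule is laid down by Sertoli and peritubular myoid cells and touches the spermatogonia, whereas the interstitium contains fibroblasts, Leydig cells, vessels and macrophages.

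Promoter windows are shown for 4 genes because these carry much of the level or sit in shared promoters. *Col3a1* and *Col1a2* had the highest levels of all collagen genes, *Col4a2* shares a divergent start region with *Col4a1*, and *Col4a5* lies head to head with *Col4a6*. Each window runs from 250 bases before to 50 bases after the start in the RefSeq promoter table (GRCm38.p6, which is mm10, plus strand for all 4) and is written 5′ to 3′, with capitals at matches of TATAAA (the TATA box), CCAAT (the CAAT box) or GGGCGG (the GC box) on either strand. The windows lie at chr1:45311288-45311587 for *Col3a1*, chr6:4505368-4505667 for *Col1a2*, chr8:11312555-11312854 for *Col4a2* and chrX:141475169-141475468 for *Col4a5*. That start is also the gene start of the count table for *Col3a1* and *Col4a5*, and lies 79 bases upstream of it for *Col1a2* and 24 bases upstream for *Col4a2*.
Col3a1: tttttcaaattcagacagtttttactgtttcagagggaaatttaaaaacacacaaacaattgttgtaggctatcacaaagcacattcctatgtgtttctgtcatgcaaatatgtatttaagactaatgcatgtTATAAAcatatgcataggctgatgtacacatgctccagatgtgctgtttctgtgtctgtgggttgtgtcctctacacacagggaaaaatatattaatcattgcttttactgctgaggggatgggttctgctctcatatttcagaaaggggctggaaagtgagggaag
Col1a2: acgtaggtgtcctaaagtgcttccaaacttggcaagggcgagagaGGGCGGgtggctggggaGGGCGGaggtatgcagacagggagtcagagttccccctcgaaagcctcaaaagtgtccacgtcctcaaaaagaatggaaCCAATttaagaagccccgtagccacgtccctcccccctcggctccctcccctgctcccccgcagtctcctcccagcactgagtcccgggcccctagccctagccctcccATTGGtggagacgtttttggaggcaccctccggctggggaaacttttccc
Col4a2: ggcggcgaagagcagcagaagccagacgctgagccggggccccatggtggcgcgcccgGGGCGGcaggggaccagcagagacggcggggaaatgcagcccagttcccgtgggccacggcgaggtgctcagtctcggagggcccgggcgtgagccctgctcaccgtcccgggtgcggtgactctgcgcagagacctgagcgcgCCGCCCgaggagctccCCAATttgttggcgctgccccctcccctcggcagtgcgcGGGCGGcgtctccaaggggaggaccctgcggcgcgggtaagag
Col4a5: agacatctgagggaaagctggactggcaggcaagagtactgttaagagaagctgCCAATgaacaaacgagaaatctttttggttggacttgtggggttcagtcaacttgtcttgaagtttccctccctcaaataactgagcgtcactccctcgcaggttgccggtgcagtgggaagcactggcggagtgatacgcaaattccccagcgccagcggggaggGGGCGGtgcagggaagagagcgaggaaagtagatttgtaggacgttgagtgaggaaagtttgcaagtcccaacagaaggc

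The windows of the most abundant fibrillar pair did not look alike. That of *Col3a1* had 1 TATAAA match, neither of the other motifs and no CpG dinucleotide, whereas that of *Col1a2* had 2 CCAAT and 2 GGGCGG matches and 13 CpG dinucleotides. The *Col4a2* window had 3 GGGCGG matches, 1 CCAAT match and 33 CpG dinucleotides, and the *Col4a1* window, which overlaps it on the opposite strand, had 37 CpG dinucleotides. The *Col4a5* and *Col4a6* windows had 11 and 3. Of the 43 collagen genes, 34 had a window in the RefSeq table, and *Col12a1*, *Col14a1*, *Col1a1*, *Col22a1*, *Col26a1*, *Col2a1*, *Col4a3*, *Col5a2* and *Col9a3* had none there. With 1 window per gene, GGGCGG was found in 75.0% of the 8 fibrillar, 71.4% of the 7 basement membrane and 57.9% of the 19 other windows, against 35.7% of all 32851 promoter windows of that length. CCAAT was found in 35.3% of the 34 windows against 37.4% of all, and TATAAA in 11.8% against 13.6%. The *Col18a1* window left out of the basement membrane share had no GGGCGG match. Over all 37 collagen windows, GGGCGG was found in 62.2%. The median CpG count was 12.5 in the 34 windows and 7.0 in all promoter windows, which cover 27025 genes. Matches of different motifs may overlap and were counted separately, and a match is a run of letters, not a binding site.

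Several type IV and type VI genes lie side by side (mm10, by the gene bounds of the count table). *Col4a1* and *Col4a2* start 2 bases apart on chromosome 8, *Col4a4* and *Col4a3* start 71 bases apart on chromosome 1, and *Col4a6* and *Col4a5* start 1342 bases apart on chromosome X, each pair head to head. *Col3a1* and *Col5a2* lie tail to tail on chromosome 1, 24624 bases apart. Exons of 37 collagen genes overlapped no other gene. Exon bases shared with another gene made up 22.2% of *Col6a1*, 18.4% of *Col1a2*, 8.08% of *Col9a3*, 7.74% of *Col22a1*, 4.39% of *Col5a1* and 0.391% of *Col7a1*. Reads on such bases are dropped by the counter, so the level of these genes can be understated.

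Collagen reads were far more frequent in the Thy1+ than in the c-Kit+ fraction. The 43 genes took 1.60% to 2.07% of all counts in control Thy1+ libraries, 1.82% to 2.67% in mutant Thy1+ libraries, 0.385% to 0.451% in control c-Kit+ libraries and 0.624% to 0.799% in mutant c-Kit+ libraries. The 4 ranges overlapped only between the genotypes of the Thy1+ fraction. Levels per gene are given below as CPM per kilobase of exon (CPM per kb), the scale on which genes can be compared with each other. Mean levels over the 12 libraries ran from 0.0466 CPM per kb for *Col19a1* to 539.6 for *Col3a1*. The 5 most abundant genes, *Col3a1*, *Col1a2*, *Col1a1*, *Col4a1* and *Col6a1* in every group, made up 70.7% of the summed collagen level per kb in control Thy1+, 70.0% in mutant Thy1+, 63.0% in control c-Kit+ and 64.6% in mutant c-Kit+ cells.

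**Figure D1:**
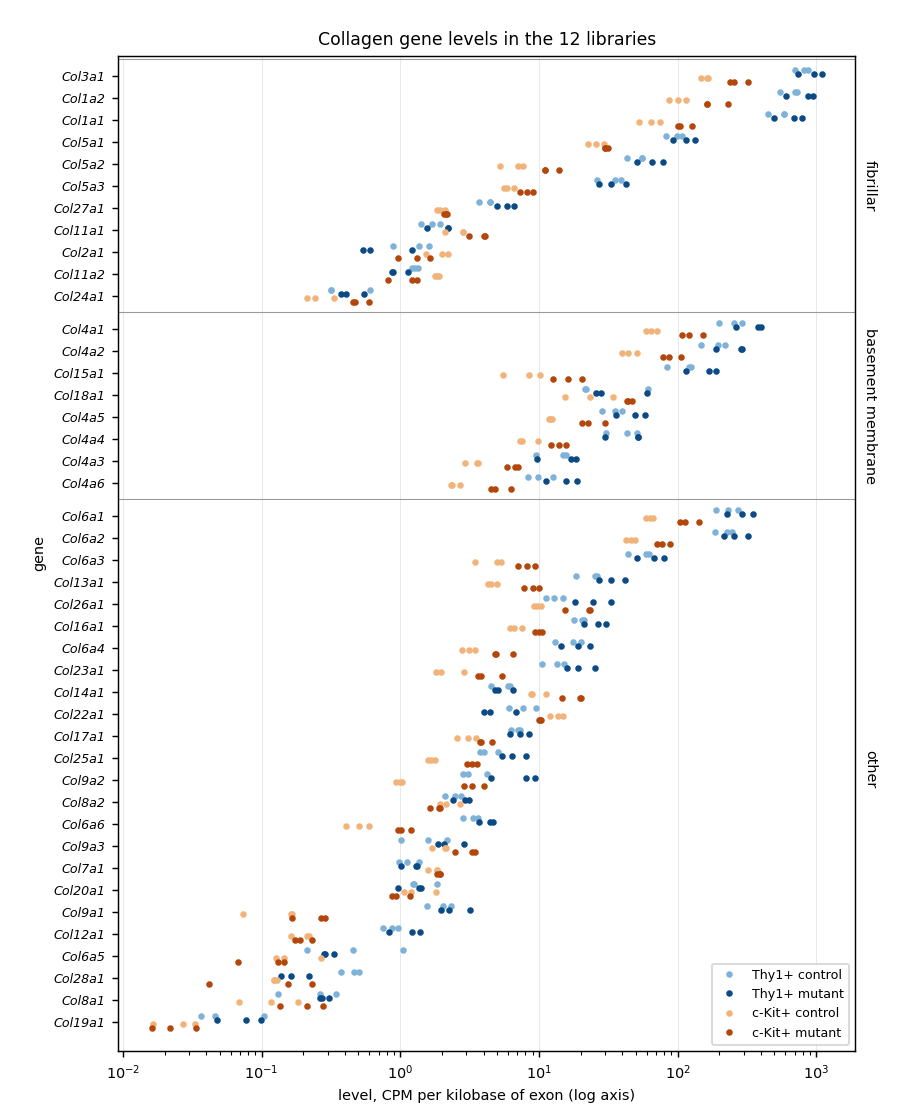
Level of each of the 43 collagen genes in each library, in CPM per kilobase of exon on a log axis, with genes grouped by class and ordered by mean level and 1 point per library in the color of its group. The 3 c-Kit+ control libraries (light orange) lie lowest for most abundant genes, such as Col3a1 at 148 to 165, and the Thy1+ libraries (blue) highest, at 703 to 1099.

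The abundant fibrillar genes shared this order. *Col3a1*, the chain of type III collagen, found with type I in elastic tissues, was at 819, 703 and 868 CPM per kb in control Thy1+ libraries, 958, 737 and 1099 in mutant Thy1+, 165, 162 and 148 in control c-Kit+ and 321, 241 and 256 in mutant c-Kit+ libraries. *Col1a2*, the second chain of type I collagen, the main fibril of connective tissue, stood at 703, 548 and 723 CPM per kb in control Thy1+ libraries, 875, 603 and 949.8 in mutant Thy1+, 116, 101 and 86.8 in control c-Kit+ and 232, 163 and 163 in mutant c-Kit+ libraries. *Col1a1*, the first chain of type I collagen, had levels of 582, 447 and 589.8 CPM per kb in control Thy1+ libraries, 692, 498 and 793 in mutant Thy1+, 75.1, 63.9 and 52.7 in control c-Kit+ and 127, 104 and 99.9 in mutant c-Kit+ libraries. In each of these 3 genes all 6 Thy1+ libraries were above all 6 c-Kit+ libraries, and all mutant c-Kit+ libraries above all control c-Kit+ libraries, while the genotypes overlapped within the Thy1+ fraction. *Col5a1*, a chain of type V collagen, which starts and limits the growth of type I fibrils, was at 98.6, 82.1 and 108 CPM per kb in control Thy1+ libraries, 114, 92.5 and 133 in mutant Thy1+, 29.7, 25.8 and 22.4 in control c-Kit+ and 31.5, 30.03 and 29.9 in mutant c-Kit+ libraries. *Col5a2*, its partner chain, stood at 55.6, 43 and 55.8 CPM per kb in control Thy1+ libraries, 65.6, 51.2 and 77.9 in mutant Thy1+, 7.72, 7.03 and 5.27 in control c-Kit+ and 13.9, 11 and 11.1 in mutant c-Kit+ libraries. The genotypes of the c-Kit+ fraction lay closer together for *Col5a1* than for *Col5a2*.

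Among basement membrane genes, type IV and type XV chains followed the same order. *Col4a1*, with *Col4a2* a chain of the type IV network found in all basement membranes, had levels of 290.2, 199.9 and 256 CPM per kb in control Thy1+ libraries, 380.4, 263 and 400.3 in mutant Thy1+, 71, 59.5 and 64.7 in control c-Kit+ and 153, 107 and 121 in mutant c-Kit+ libraries. *Col4a2*, the partner of *Col4a1*, was at 219, 147 and 197 CPM per kb in control Thy1+ libraries, 285, 190.4 and 292 in mutant Thy1+, 51, 39.4 and 44.1 in control c-Kit+ and 106, 77.9 and 87.2 in mutant c-Kit+ libraries. *Col15a1*, a collagen that links basement membranes to fibrils, stood at 124, 83.3 and 122 CPM per kb in control Thy1+ libraries, 168, 116 and 189 in mutant Thy1+, 10.2, 8.41 and 5.51 in control c-Kit+ and 20.5, 16.3 and 12.7 in mutant c-Kit+ libraries. *Col15a1* was the basement membrane gene with the widest gap between fractions. *Col18a1*, the source of the fragment endostatin and a component of epithelial and vascular basement membranes, had levels of 61.2, 22 and 21.7 CPM per kb in control Thy1+ libraries, 60.05, 25.6 and 27.9 in mutant Thy1+, 34.4, 15.5 and 23.5 in control c-Kit+ and 44.1, 46.7 and 43.5 in mutant c-Kit+ libraries. *Col18a1* did not separate the fractions, and its 2 highest Thy1+ values were those of replicate 1, the libraries that were also highest in Sertoli markers. In control c-Kit+ libraries its order of 34.4, 15.5 and 23.5 was likewise that of the summed Sertoli markers, 1852, 695 and 1264 CPM. The orders also matched in mutant Thy1+ libraries. They differed in mutant c-Kit+ libraries, at 44.1, 46.7 and 43.5 against 2880, 2894 and 3181 CPM. They also differed in control Thy1+ replicates 2 and 3, at 22 and 21.7 against 549 and 598 CPM. The part of Sertoli cells was not tested. *Col4a6*, a type IV chain of a more restricted network, was at 9.79, 8.29 and 12.7 CPM per kb in control Thy1+ libraries, 15.8, 11.2 and 19 in mutant Thy1+, 2.34, 2.32 and 2.69 in control c-Kit+ and 6.25, 4.48 and 4.8 in mutant c-Kit+ libraries. *Col4a6* separated the fractions as *Col4a1* did, at a level far below it.

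The most abundant other collagens were the type VI chains, which form beaded filaments, and the membrane-spanning *Col13a1*. *Col6a1*, a chain of the type VI trimer, stood at 231, 190.5 and 274 CPM per kb in control Thy1+ libraries, 289.9, 228 and 352 in mutant Thy1+, 66.9, 59.3 and 63 in control c-Kit+ and 142, 104 and 113 in mutant c-Kit+ libraries. *Col6a2*, the second type VI chain, had levels of 227, 186 and 248 CPM per kb in control Thy1+ libraries, 257, 215 and 322 in mutant Thy1+, 49.7, 42.1 and 46.1 in control c-Kit+ and 88.8, 71.3 and 77.4 in mutant c-Kit+ libraries. *Col6a3*, the longest chain of the type VI trimer, was at 58.8, 44 and 62.3 CPM per kb in control Thy1+ libraries, 67.5, 51.1 and 79.5 in mutant Thy1+, 5.37, 5.02 and 3.47 in control c-Kit+ and 9.32, 8.24 and 7.09 in mutant c-Kit+ libraries. All 3 had every Thy1+ library above every c-Kit+ library. *Col13a1*, a transmembrane collagen, stood at 25.2, 18.4 and 26.4 CPM per kb in control Thy1+ libraries, 33, 27 and 42 in mutant Thy1+, 4.54, 4.26 and 4.96 in control c-Kit+ and 10.1, 7.84 and 9.12 in mutant c-Kit+ libraries. Its genotypes did not overlap in either fraction.

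In the c-Kit+ fraction, most collagen genes were higher in mutant than in control libraries. Of 43 genes, 25 were called higher and 2 lower (edgeR quasi-likelihood test, adjusted p under 0.05 and a log2 fold change beyond 0.5), against 14.8% and 7.41% of all 17134 genes tested. The median log2 fold change was 0.73 over the 43 genes and 0.01 over all genes tested. Mutant and control libraries did not overlap for 31 collagen genes that were higher and 2 that were lower, against 31.6% and 20.6% of all genes. In bulk samples, fewer cells of a type and less RNA per cell cannot be told apart.

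Basement membrane collagens had the narrowest range of the 3 classes. All 8 were called higher, with log2 fold changes from 0.69 to 1.02 and a median of 0.93, and all 8 were higher in each of the 3 pairs of libraries with the same number, as were 39.9% of all genes. *Col4a6* rose by 1.02 ± 0.13 (adjusted p = 0.00045), *Col15a1* by 0.98 ± 0.21 (adjusted p = 0.00499) and *Col4a2* by 0.95 ± 0.12 (adjusted p = 0.000348). *Col4a4*, a chain of the network best known from kidney glomeruli, had the smallest change of the class, 0.69 ± 0.12 (adjusted p = 0.00168). *Col18a1* rose by 0.81 ± 0.21 (adjusted p = 0.0126), and in a fit of all 12 libraries it was not called (0.87, adjusted p = 0.148).

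Fibrillar collagens were split. *Col24a1*, *Col1a2*, *Col5a2*, *Col1a1* and *Col3a1* were called higher, *Col11a2* and *Col2a1* were called lower, and the median of the 11 genes was 0.47 with a range from -0.79 to 0.90. *Col1a2* rose by 0.82 ± 0.14 (adjusted p = 0.00142), *Col1a1* by 0.73 ± 0.12 (adjusted p = 0.00141), *Col3a1* by 0.72 ± 0.10 (adjusted p = 0.000491) and *Col5a2* by 0.79 ± 0.14 (adjusted p = 0.00169). The other type V chains did not pass, with *Col5a1* at 0.17 ± 0.09 (adjusted p = 0.151) and *Col5a3* at 0.38 ± 0.10 (adjusted p = 0.0106), nor did *Col27a1*, a minor fibrillar chain, at 0.07 ± 0.10 (adjusted p = 0.648). *Col11a1*, a type XI chain of cartilage fibrils, passed the adjusted p but not the fold change, at 0.47 ± 0.14 (adjusted p = 0.0259).

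The genes called lower are chains of cartilage fibrils at low levels. *Col11a2*, the second chain of type XI collagen, had levels of 1.22, 1.34 and 1.28 CPM per kb in control Thy1+ libraries, 1.14, 0.89 and 0.867 in mutant Thy1+, 1.89, 1.79 and 1.84 in control c-Kit+ and 1.21, 0.812 and 1.31 in mutant c-Kit+ libraries. *Col2a1*, the chain of type II collagen, was at 0.889, 1.6 and 1.37 CPM per kb in control Thy1+ libraries, 0.608, 1.21 and 0.543 in mutant Thy1+, 2.21, 1.99 and 1.54 in control c-Kit+ and 1.32, 1.63 and 0.959 in mutant c-Kit+ libraries. *Col11a1*, the first chain of type XI collagen, stood at 1.42, 1.71 and 1.94 CPM per kb in control Thy1+ libraries, 2.19, 1.55 and 2.22 in mutant Thy1+, 2.83, 2.11 and 2.85 in control c-Kit+ and 4.08, 3.14 and 3.99 in mutant c-Kit+ libraries. Control and mutant c-Kit+ libraries did not overlap for *Col11a2* and *Col11a1*, in opposite directions, and overlapped for *Col2a1*. *Col11a2* fell by 0.79 ± 0.18 (adjusted p = 0.00615) and *Col2a1* fell by 0.61 ± 0.21 (adjusted p = 0.0392). The call of *Col2a1* was lost on leaving out control replicate 1 or 2 or mutant replicate 1 or 3 (adjusted p from 0.0757 to 0.127), and the count of collagen genes called lower was then 1 without control replicate 2, mutant replicate 1 or mutant replicate 3.

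Among the 24 other collagens, 12 were called higher and 0 lower by edgeR, with 14 higher and 3 lower at an unadjusted p under 0.05 (25.2% and 22.6% of all genes), and the median was 0.72. DESeq2 called the same 2 fibrillar genes lower (7.72% of all genes) and 0 of the other collagens. The largest change of all 43 genes was that of *Col9a2*, a fibril-associated chain of cartilage. *Col9a2*, a type IX chain, had levels of 4.24, 2.83 and 3.08 CPM per kb in control Thy1+ libraries, 9.43, 4.55 and 8.05 in mutant Thy1+, 1.03, 0.927 and 0.994 in control c-Kit+ and 3.27, 2.86 and 4.05 in mutant c-Kit+ libraries. It rose by 1.73 ± 0.18 (adjusted p = 0.000207), and the genotypes did not overlap. Its partner *Col9a3* rose by 0.58 ± 0.17 (adjusted p = 0.0222), whereas *Col9a1*, at 0.0736 to 0.288 CPM per kb in c-Kit+ libraries, changed by 0.79 ± 0.43 (adjusted p = 0.176) and was not called.

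Of 6 type VI chains, 5 rose, with *Col6a6* at 1.02 ± 0.18 (adjusted p = 0.00194), *Col6a1* at 0.87 ± 0.10 (adjusted p = 0.000334), *Col6a3* at 0.77 ± 0.15, *Col6a2* at 0.73 ± 0.09 and *Col6a4* at 0.72 ± 0.13. *Col6a5*, which lies between *Col6a6* and *Col6a4* on chromosome 9, had a value of opposite sign that did not pass, -0.71 ± 0.39 (adjusted p = 0.181). *Col6a5*, a related longer chain, was at 0.212, 1.04 and 0.454 CPM per kb in control Thy1+ libraries, 0.28, 0.285 and 0.335 in mutant Thy1+, 0.266, 0.145 and 0.128 in control c-Kit+ and 0.146, 0.0681 and 0.131 in mutant c-Kit+ libraries. Its spread was widest in the control Thy1+ libraries, where 1 of 3 stood far above the others.

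The membrane-spanning collagens *Col25a1*, *Col13a1* and *Col23a1* rose by 0.92 ± 0.11, 0.92 ± 0.12 and 0.89 ± 0.20 (adjusted p = 0.000291, 0.000445 and 0.00531), while *Col17a1*, the collagen of hemidesmosomes, was at 0.36 ± 0.13 (adjusted p = 0.0584). *Col25a1*, a transmembrane collagen of neurons and muscle, stood at 4.04, 3.76 and 5.03 CPM per kb in control Thy1+ libraries, 6.4, 5.41 and 8.04 in mutant Thy1+, 1.67, 1.77 and 1.6 in control c-Kit+ and 3.61, 3.04 and 3.32 in mutant c-Kit+ libraries. *Col26a1*, a short collagen with an EMI domain, had levels of 12.8, 11.2 and 15 CPM per kb in control Thy1+ libraries, 24.6, 18.3 and 33 in mutant Thy1+, 9.64, 9.19 and 10.4 in control c-Kit+ and 23.4, 15.3 and 22.9 in mutant c-Kit+ libraries. Both genes separated the genotypes in both fractions. *Col26a1* rose by 1.02 ± 0.15 (adjusted p = 0.000652) in c-Kit+ cells.

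Fibril-associated collagens outside type IX, and the anchoring collagen *Col7a1*, did not move in 1 direction. *Col14a1*, which binds the surface of fibrils, was at 4.51, 6.16 and 6 CPM per kb in control Thy1+ libraries, 4.8, 5.09 and 6.56 in mutant Thy1+, 8.93, 8.76 and 11.3 in control c-Kit+ and 20.2, 14.7 and 19.7 in mutant c-Kit+ libraries. *Col22a1*, a collagen of tissue junctions, stood at 6.11, 9.49 and 7.71 CPM per kb in control Thy1+ libraries, 4.01, 6.83 and 4.43 in mutant Thy1+, 13.8, 14.9 and 11.9 in control c-Kit+ and 10.3, 10.03 and 10.2 in mutant c-Kit+ libraries. *Col7a1*, the collagen of anchoring fibrils in skin, had levels of 0.975, 1.37 and 1.13 CPM per kb in control Thy1+ libraries, 1.02, 1.3 and 1.32 in mutant Thy1+, 1.84, 1.85 and 1.58 in control c-Kit+ and 1.94, 1.85 and 1.93 in mutant c-Kit+ libraries. *Col14a1* and *Col22a1* separated the c-Kit+ genotypes in opposite directions, and *Col7a1* did not separate them. *Col14a1* rose by 0.86 ± 0.13 (adjusted p = 0.000897). *Col22a1* was lower in all mutant libraries but did not pass the fold change, at -0.47 ± 0.08 (adjusted p = 0.00191), and *Col16a1* was just outside it, at 0.50 ± 0.09 (adjusted p = 0.00246). With the replicate number as a block, 26 collagen genes were called higher and 2 lower (15.8% and 7.51% of all genes), and *Col16a1* was the gene added (0.50 ± 0.08, adjusted p = 0.00101). *Col12a1*, *Col19a1*, *Col20a1*, *Col8a1*, *Col8a2*, *Col28a1* and *Col7a1* had values from -0.51 to 0.71 with adjusted p from 0.0992 to 0.876.

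**Figure D2:**
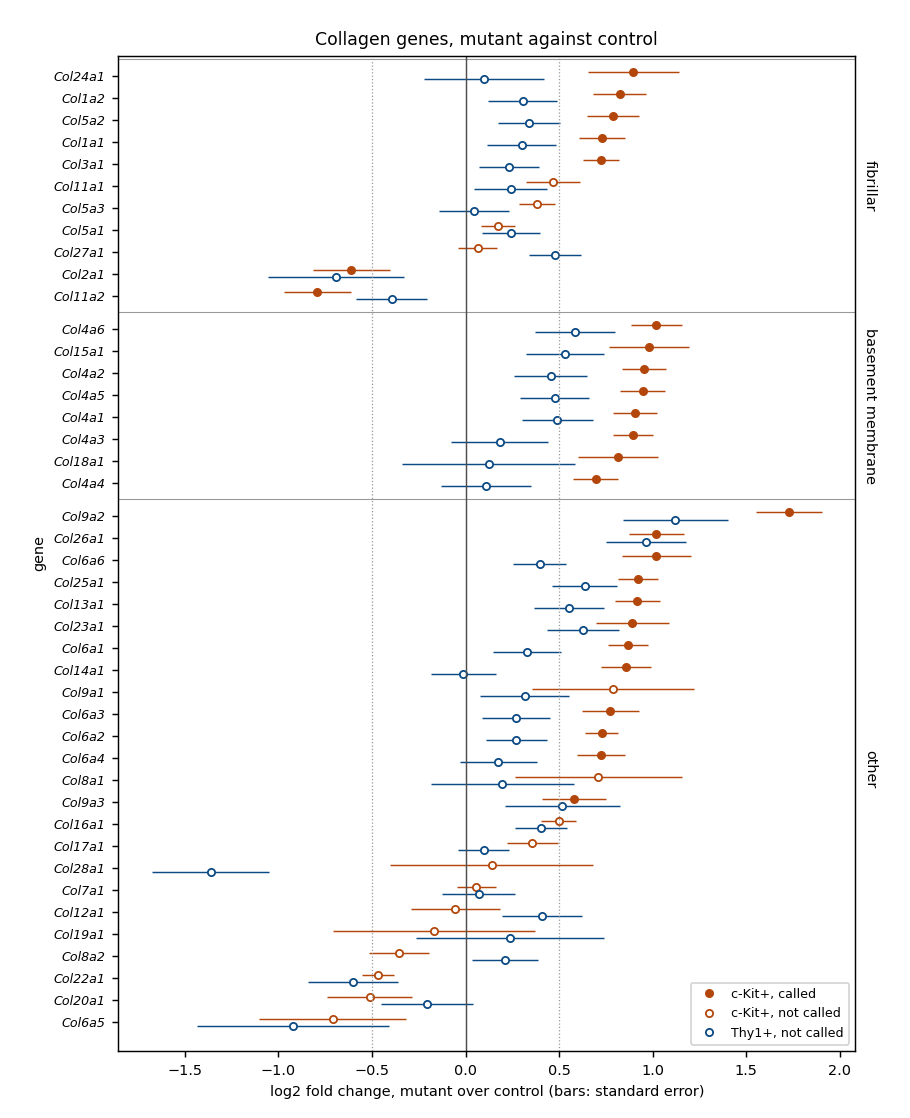
Log2 fold change of mutant over control libraries for each of the 43 collagen genes in the c-Kit+ (orange) and Thy1+ (blue) fractions, with bars for the standard error, filled points for genes called by edgeR, open points for genes not called, and dotted lines at -0.5 and 0.5. All 8 basement membrane genes are filled and to the right in c-Kit+ cells, Col9a2 lies furthest right at 1.73, and no Thy1+ point is filled. The fits are those without a block.

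In the Thy1+ fraction, no collagen gene was called by edgeR without a block, as was the case for all 17416 genes tested (0% called higher and 0% lower). The lowest adjusted p among the collagens was 0.204. The log2 fold change was above 0 for 36 of 43 genes and for 53.4% of all genes. Class medians were 0.24 for fibrillar, 0.47 for basement membrane and 0.27 for other collagens, beside 0.03 for all genes. At an unadjusted p under 0.05, 13 collagen genes were higher and 2 lower, against 4.66% and 7.69% of all genes. DESeq2 called 3 higher and 1 lower (0.299% and 1.87% of all genes), and the edgeR exact test called 2 higher and 1 lower (0.115% and 1.57%).

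Libraries with the same replicate number deviated together in this fraction, and with that number as a block 8 collagen genes were called higher and 3 lower, against 3.20% and 4.92% of all genes. The 8 were *Col9a2*, *Col26a1*, *Col25a1*, *Col23a1*, *Col4a6*, *Col9a3*, *Col13a1* and *Col15a1*, and the 3 were *Col28a1*, *Col2a1* and *Col22a1*. *Col9a2* was higher by 1.12 ± 0.28 (adjusted p = 0.247) and by 1.09 ± 0.13 with the block (adjusted p = 2.14e-05). *Col26a1* was higher by 0.96 ± 0.21 (adjusted p = 0.204) and by 0.94 ± 0.08 with the block (adjusted p = 1.85e-06).

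*Col28a1*, a low-abundance collagen related to type VI, was at 0.508, 0.372 and 0.466 CPM per kb in control Thy1+ libraries, 0.218, 0.162 and 0.138 in mutant Thy1+, 0.124, 0.128 and 0.124 in control c-Kit+ and 0.0419, 0.155 and 0.233 in mutant c-Kit+ libraries. Control and mutant Thy1+ libraries did not overlap for *Col28a1*. Its log2 fold change was -1.36 ± 0.31 (adjusted p = 0.229), and -1.37 ± 0.34 with the block (adjusted p = 0.00691). *Col2a1* was at -0.69 ± 0.36 and *Col22a1* at -0.60 ± 0.24, and their adjusted p of 0.456 and 0.379 became 0.0111 and 3.66e-05 with the block. In total, 7 collagen genes were higher and 2 lower without overlap between the Thy1+ genotypes, against 6.51% and 10.7% of all genes. The genotypes overlapped for the abundant genes *Col3a1* (0.23 ± 0.16), *Col1a2* (0.31 ± 0.18), *Col1a1* (0.30 ± 0.18), *Col4a1* (0.49 ± 0.19) and *Col6a1* (0.33 ± 0.18). *Col18a1* was at 0.12 ± 0.46, and at -0.37 without mutant replicate 1. Control replicate 1 was about as high (354 CPM, and 348 in mutant replicate 1), against 126 to 162 CPM in the other Thy1+ libraries. Leaving out control replicate 1 moved the value the other way.

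Without a block, the genotype difference was not shown to differ between fractions. In such a fit of all 12 libraries, 0 collagen genes passed the test of the difference of differences in edgeR and 0 in DESeq2, as did 0% of all 18002 genes in edgeR (DESeq2, 0.244% higher and 0.111% lower in c-Kit+ cells). At an unadjusted p under 0.05, 10 were higher in c-Kit+ and 0 lower, against 8.21% and 1.81% of all genes, and class medians were 0.40, 0.55 and 0.34 for fibrillar, basement membrane and other collagens, beside 0.08 for all genes. *Col14a1* had the lowest unadjusted p (0.00181), with a genotype difference of -0.01 ± 0.17 in Thy1+ and 0.86 ± 0.13 in c-Kit+ cells, and the difference of 0.93 ± 0.24 had an adjusted p of 0.381. *Col28a1* was at 1.57 ± 0.64 (adjusted p = 0.453) and *Col27a1*, higher without overlap in Thy1+ mutants (0.48 ± 0.14) but not in c-Kit+ mutants (0.07 ± 0.10), was at -0.35 ± 0.17 (adjusted p = 0.511).

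Most collagen genes were higher in Thy1+ than in c-Kit+ libraries. In control mice, 29 of 43 were called higher in Thy1+ than in c-Kit+ libraries and 5 lower, against 20.7% and 7.08% of all 17350 genes tested. Medians were 1.92 for the 11 fibrillar, 2.05 for the 8 basement membrane and 1.62 for the 24 other collagens, and 0.03 for all genes. In mutant mice, 30 were called higher and 4 lower, against 15.3% and 5.03% of all 17346 genes, and the medians were 1.81, 1.52 and 1.23, with -0.03 for all genes. Libraries of the fractions did not overlap for 30 higher and 5 lower collagen genes in control mice (29.5% and 24.8% of all genes) and for 30 and 4 in mutant mice (23.3% and 26.7%). These comparisons use the same libraries as the genotype comparisons, so the values are not independent of each other.

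The 5 fibrillar genes with the largest differences in control mice were also called higher in mutant mice. In control mice *Col1a1* was higher by 3.10 ± 0.17, *Col5a2* by 2.97 ± 0.17, *Col1a2* by 2.73 ± 0.16, *Col5a3* by 2.49 ± 0.15 and *Col3a1* by 2.35 ± 0.12 (adjusted p from 1.67e-05 to 1.69e-05). In mutant mice the same 5 genes were higher by 2.63 ± 0.18, 2.48 ± 0.16, 2.16 ± 0.20, 2.11 ± 0.16 and 1.81 ± 0.16. *Col5a1* was higher by 1.92 ± 0.14 in control and 1.94 ± 0.13 in mutant mice. The type XI chains went the other way in control mice, with *Col11a1* lower by 0.60 ± 0.17 and *Col11a2* lower by 0.50 ± 0.14 (edgeR adjusted p = 0.0259 and 0.0257). In mutant mice *Col11a1* was lower by 0.87 ± 0.17 (adjusted p = 0.00660) and *Col11a2*, at -0.16 ± 0.23, was not called (adjusted p = 0.625). Without a block, *Col2a1* was not called in control or mutant mice, at -0.56 ± 0.24 and -0.67 ± 0.33 (adjusted p = 0.103 and 0.158).

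*Col15a1* had the largest difference among basement membrane genes, higher by 3.80 ± 0.26 in control and 3.30 ± 0.22 in mutant mice (adjusted p = 2.40e-05 and 3.84e-05). The 6 type IV chains were higher by 1.54 (*Col4a5*) to 2.35 (*Col4a4*) in control and by 1.02 to 1.72, for the same genes, in mutant mice. *Col18a1* was the only basement membrane gene not called in either genotype, at 0.55 ± 0.43 and -0.20 ± 0.28 (adjusted p = 0.345 and 0.611). Without replicate 1 of control Thy1+ cells its value was -0.16, and without replicate 1 of mutant Thy1+ cells it was -0.68 and was called lower (adjusted p = 0.000991).

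Other collagens ranged from the largest increase to the largest decrease of the set. *Col9a1* was higher by 3.90 ± 0.34 and *Col6a3* by 3.60 ± 0.20 in control mice, and by 3.38 ± 0.29 and 3.05 ± 0.17 in mutant mice. *Col14a1* was lower by 0.77 ± 0.15 in control mice and by 1.69 ± 0.16 in mutant mice, *Col22a1* by 0.78 ± 0.16 and 0.95 ± 0.19, and *Col7a1* by 0.58 ± 0.16 and 0.61 ± 0.14 (adjusted p from 0.000135 to 0.0239). *Col6a5* was called higher in control mice (1.68 ± 0.55, adjusted p = 0.0419), but at 0.88 it was not called without Thy1+ replicate 2 (adjusted p = 0.154), nor without Thy1+ replicate 3 or c-Kit+ replicate 2 or 3 (adjusted p from 0.0691 to 0.133). *Col28a1* was called higher in control mice only (1.86 ± 0.31 and 0.31 ± 0.56), and the difference between those values was tested above. The count of genes called lower in control mice rested on single libraries. It was 2 without replicate 1 of either fraction and 3 without c-Kit+ replicate 2 or 3, with *Col11a2* lost in all 4 and *Col7a1* lost in 3 of them.

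**Figure D3:**
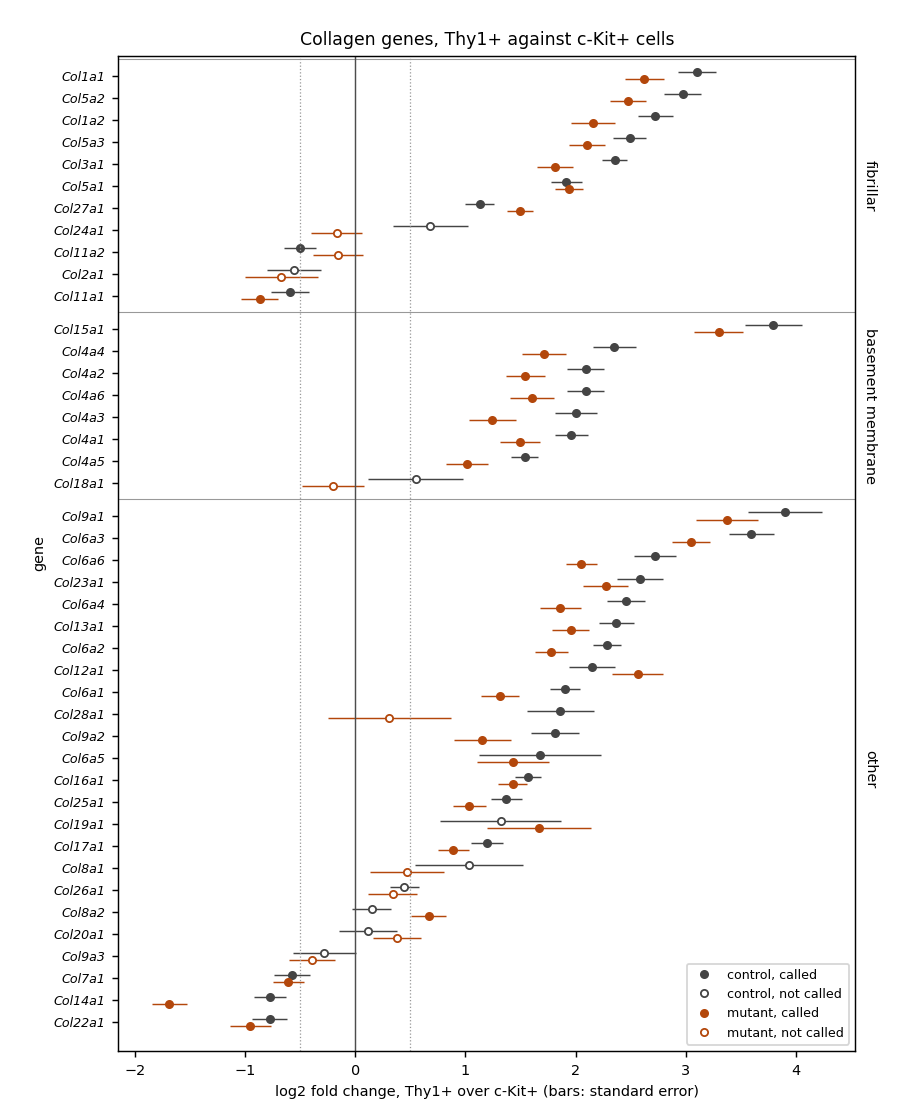
Log2 fold change of Thy1+ over c-Kit+ libraries for each collagen gene in control (grey) and mutant (orange) mice, with bars for the standard error, filled points for genes called by edgeR and dotted lines at -0.5 and 0.5. Most genes lie to the right of 1, Col9a1 and Col15a1 reach 3.90 and 3.80 in control mice, and Col14a1 lies furthest left at -1.69 in mutant mice.

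The make-up of the collagen transcripts also differed between fractions. Fibrillar genes held 60.2% to 63.6% of the summed collagen level per kb in the 6 Thy1+ libraries and 48.7% to 54.1% in the 6 c-Kit+ libraries, and these ranges did not overlap. Other collagens held 17.2% to 18.99% and 23.6% to 26.3%, and basement membrane collagens 18.1% to 22.6% and 21.4% to 26.2%. The last 2 ranges overlapped only through mutant Thy1+ replicate 1 (22.6%), which was above control c-Kit+ replicate 2 (21.4%). Over the 6 Thy1+ against the 6 c-Kit+ libraries, a two-sided exact permutation test gave p = 0.00216 for the fibrillar and other shares and p = 0.00433 for the basement membrane share. The first is the smallest p that free permutation of the 12 libraries, genotypes pooled, can give, and the adjusted values over the 10 shares and ratios tested were 0.00271 and 0.00433. Permuted only within the 6 pairs of libraries of the same genotype and number, a test added after the data were seen, each of the 3 shares gave an exact p of 0.0312, the smallest it can give (adjusted p = 0.0347). Within the c-Kit+ fraction the basement membrane share was 21.4% to 24.5% in control and 25.9% to 26.2% in mutant libraries, without overlap, a difference that 3 against 3 libraries cannot test below 0.10.

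Ratios between chains differed between fractions. The ratio of *Col1a1* to *Col1a2* per kb was 0.791 to 0.835 in Thy1+ and 0.545 to 0.647 in c-Kit+ libraries, and that of *Col3a1* to *Col1a1*, which sets type III against type I collagen, was 1.38 to 1.57 and 2.20 to 2.80. The ratio of *Col6a1* to *Col6a2* was 1.02 to 1.13 and 1.35 to 1.60, and that of *Col4a5* to *Col4a6* was 3.08 to 3.61 and 4.59 to 5.19. None of these ranges overlapped between fractions, and each ratio gave p = 0.00216 in the exact permutation test (adjusted p = 0.00271). *Col4a3* to *Col4a4* gave the same p, at 0.307 to 0.362 and 0.364 to 0.506. The divergent pair *Col4a1* and *Col4a2* had the ratio that differed least between fractions, 1.30 to 1.38 in Thy1+ and 1.37 to 1.51 in c-Kit+ libraries (p = 0.00433 and adjusted p = 0.00433 in the exact permutation test). Within the 6 pairs, that ratio was lower in Thy1+ cells in 5 and did not pass (exact permutation p = 0.0625, adjusted p = 0.0625), and the other 6 ratios gave 0.0312 (adjusted p = 0.0347).

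The ratios of *Col5a1* to *Col5a2* and of *Col6a1* to *Col6a2* also separated the genotypes of the c-Kit+ fraction. The first was 3.84, 3.66 and 4.26 in control c-Kit+ libraries, 2.26, 2.73 and 2.69 in mutant c-Kit+ libraries and 1.71 to 1.94 in all Thy1+ libraries. *Col5a2* was called higher in mutant c-Kit+ libraries and *Col5a1* was not. The ratio of *Col6a1* to *Col6a2* was 1.35, 1.41 and 1.37 in control and 1.60, 1.46 and 1.46 in mutant c-Kit+ libraries. In neither ratio did the c-Kit+ genotypes overlap, and an exact permutation test is limited as for the shares. Shared exon bases (18.4% of *Col1a2*, 22.2% of *Col6a1* and 4.39% of *Col5a1*) can shift the level of these ratios.

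**Figure D4:**
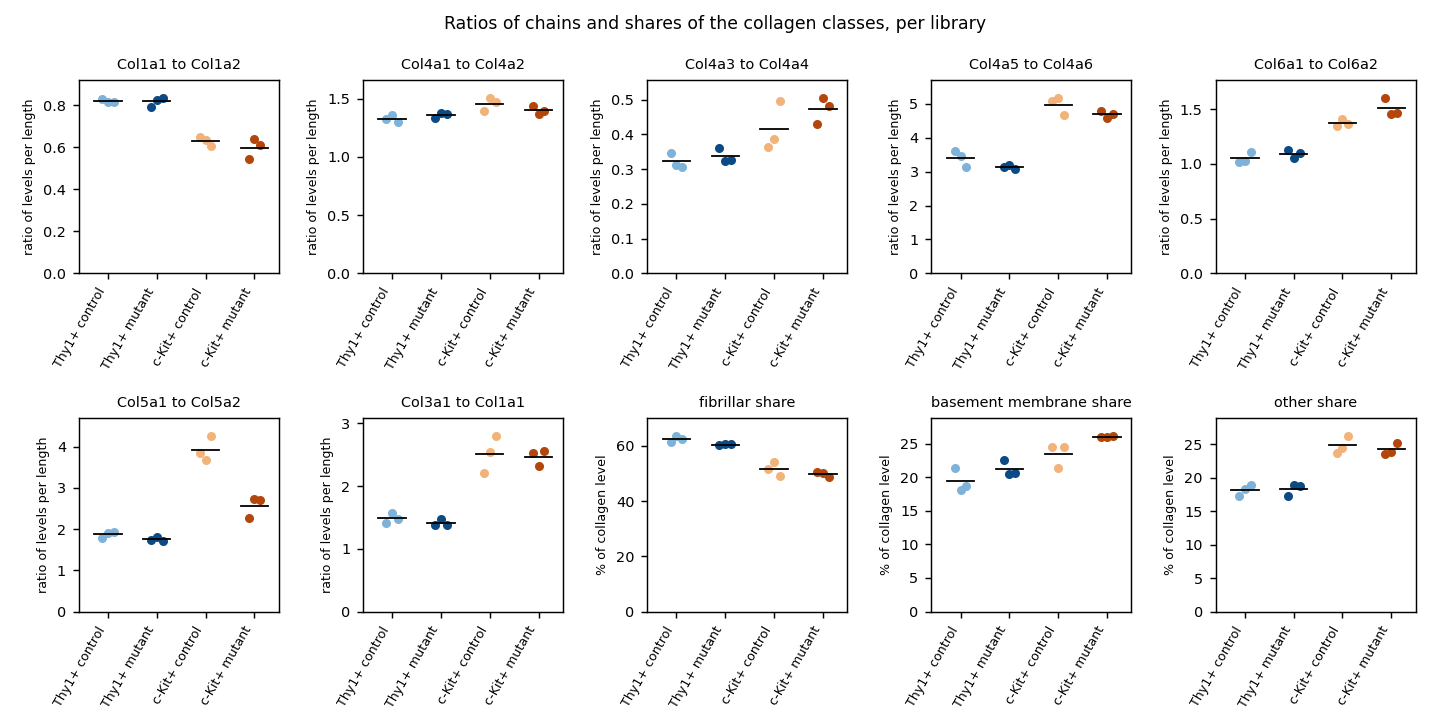
Ratio of chains (levels per kb) in 7 panels and share of each collagen class in the summed collagen level per kb in 3 panels, with 1 point per library, a black line at the group mean and axes that start at 0. Thy1+ and c-Kit+ libraries are apart for Col1a1 to Col1a2 (means of 0.820 and 0.817 against 0.630 and 0.598), and the 2 c-Kit+ groups are apart for Col5a1 to Col5a2 (3.92 and 2.56).

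Genes that make, cut and bind collagen were counted from lists of pathway members. In c-Kit+ cells, 6 of 18 genes of chain modification and folding were called higher in mutants and 1 lower, against 14.8% and 7.41% of all genes, with a median of 0.28 beside 0.01 for all genes. The lowest value was that of *P4ha3*, a prolyl hydroxylase subunit, which fell by 1.20 ± 0.38 (edgeR adjusted p = 0.0291), and the highest that of *Colgalt2*, which adds sugars to collagen lysines, at 1.02 ± 0.37 (adjusted p = 0.0506, not called). *Serpinh1*, the collagen chaperone HSP47, rose by 1.01 ± 0.13 (adjusted p = 0.000439). Its c-Kit+ means were 111 CPM in control and 233 in mutant libraries. *P4ha3* and *Colgalt2* were near the floor, at 1.33 and 0.502 CPM in control and 0.602 and 1.06 in mutant libraries. Of 13 genes of propeptide processing and crosslinking, 7 were called higher and 0 lower by edgeR, with 9 at an unadjusted p under 0.05 in either direction, against 47.8% of all genes. The lowest was *Adamts14*, a propeptide protease, at -0.45 ± 0.11 (adjusted p = 0.00916, short of the fold change). The highest was *Tll2*, a tolloid-like protease, which rose by 0.99 ± 0.34 (adjusted p = 0.0439). *Tll2* was also at a low level, with means of 1.01 CPM in control and 2.09 in mutant c-Kit+ libraries. Of 10 receptors tested, 5 were called higher. The lowest value was that of *Mrc2*, an endocytic receptor, at -0.29 ± 0.13 (adjusted p = 0.116). The highest was that of *Adgrg1*, a receptor for type III collagen, which rose by 1.39 ± 0.27 (adjusted p = 0.00259). *Adgrg1* stood at 68.4, 25.3 and 47.5 CPM in control and 114, 138 and 133 in mutant c-Kit+ libraries. This order was that of the summed Sertoli markers in control but not in mutant libraries. The part of Sertoli cells was not tested.

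In the degradation list, which holds proteases and their inhibitors, 8 of 10 tested genes were called higher and 1 lower, beside the same 14.8% and 7.41% of all genes. The 8 were 5 proteases and the inhibitors *Timp1*, *Timp2* and *Timp3*. The membrane protease *Mmp15* rose by 1.27 ± 0.19 (adjusted p = 0.000813) and *Reck*, an inhibitor of such proteases, fell by 0.57 ± 0.09 (adjusted p = 0.00130). Of 7 fibril-associated proteoglycans, 5 were called higher, from *Aspn* (asporin) at -0.11 ± 0.28 (adjusted p = 0.784) to *Lum* (lumican), which rose by 1.05 ± 0.22 (adjusted p = 0.00419). Of 13 partners of type IV collagen in basement membranes, 7 were called higher and 1 lower, both ends being laminin chains, with *Lama4* at 1.05 ± 0.11 (adjusted p = 0.000239) and *Lama5* at -0.68 ± 0.08 (adjusted p = 0.000285). In Thy1+ cells, 0 genes of these 6 lists were called by edgeR without a block, as was the case for all genes. Between 1 and 4 per list had an unadjusted p under 0.05 in that fit (12.4% of all genes). The edgeR fit with the replicate block called 3.20% of all genes higher and 4.92% lower. Counts with that block or by other tools were not taken for these lists. In control mice, called genes were higher in Thy1+ than in c-Kit+ cells for 9 of 18, 10 of 13, 7 of 10, 8 of 10, 7 of 7 and 11 of 13 genes of the 6 lists in the same order, and 1 gene, *Lama5*, was lower, against 20.7% and 7.08% of all genes.

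Markers of most somatic cell types were higher in c-Kit+ mutants, as most collagens were, whereas between fractions the lists went in different directions. In c-Kit+ cells, 30 of 50 tested markers of somatic cells, of 54 in the table, were called higher in mutants and 0 lower by edgeR, against 14.8% and 7.41% of all genes, with a median of 0.86. At an unadjusted p under 0.05 in either direction there were 35, against 47.8% of all genes. The called genes were 11 of 12 for Sertoli cells, 6 of 8 for endothelium, 4 of 6 for Leydig cells, 3 of 6 for peritubular myoid cells, 3 of 6 for stromal cells, 3 of 4 for mast cells, 0 of 7 for macrophages and 0 of 1 for erythroid cells. Of 8 germ cell markers, 0 were called higher and 3 lower (*Sycp3*, *Lin28a* and *Stra8*), with a median of -0.45. Their part in the collagen result was not tested.

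Summed levels weigh the most abundant genes of a list most, and not every marker was higher. In c-Kit+ mutants, log2 fold changes were above 0 for 5 of 6 stromal and 4 of 6 peritubular myoid markers. The lowest values were -0.50 and -0.28. The counts were 12 of 12 for Sertoli and 7 of 8 for endothelial markers. The 6 stromal markers summed to 251 to 341 CPM in control and 512 to 630 in mutant c-Kit+ libraries, the 6 peritubular myoid markers to 47.0 to 64.5 and 92.5 to 113, the 12 Sertoli markers to 695 to 1852 and 2880 to 3181, and the 8 endothelial markers to 75.9 to 101 and 130 to 204. The 11 fibrillar collagens summed to 1831 to 2271 and 3093 to 4051 CPM, and the 8 basement membrane collagens to 960 to 1252 and 1898 to 2470. None of these ranges overlapped between genotypes. The 6 Leydig markers (626 to 1220 and 1155 to 1997) and 7 macrophage markers (17.6 to 50.4 and 42.7 to 65.4) did overlap. The 8 germ cell markers went from 2800 to 3304 CPM in controls to 2055 to 2350 in mutants. The germ cell list holds *Sycp3*, *Lin28a* and *Stra8*, which the paper reports as down-regulated without CHD8. Its sum therefore cannot tell fewer germ cells from less RNA of these genes per cell.

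Between fractions, stromal markers differed in the direction of most collagens of each class. In control mice all 6 were called higher in Thy1+ cells (median 3.08), as were 5 of 6 peritubular myoid (median 2.44), 7 of 7 macrophage (2.13) and 4 of 8 endothelial markers (0.98), whereas 0 of 12 Sertoli markers were called in either direction (median 0.10, 0 at an unadjusted p under 0.05 against 47.6% of all genes), and 5 of 6 Leydig and 4 of 4 mast cell markers were called lower. Of all genes, 20.7% were called higher and 7.08% lower. In mutant mice the median of the Sertoli markers was -0.64 with 0 of 12 called, and that of the stromal markers was 2.64 with 6 of 6 called higher, against 15.3% of all genes. Stromal markers summed to 1981 to 2775 CPM in control and 2321 to 3473 in mutant Thy1+ libraries. Fibrillar collagens summed to 10029 to 12904 and 10888 to 16703. Both sums overlapped between genotypes. The log2 fold change was above 0 for 2 of 6 stromal markers (median -0.01) and 9 of 11 fibrillar collagens (median 0.24). In the Thy1+ genotype comparison no marker was called by edgeR without a block, and 6 of 51 somatic and 4 of 8 germ cell markers had an unadjusted p under 0.05, against 12.4% of all genes. Markers called with the replicate block were not counted. Of all markers in the table, *Ms4a2* (mast) had no count in control Thy1+ libraries and *Hbb-bs* (erythroid) none in control c-Kit+ libraries, and the defining markers of the other lists were counted in every group. Whether germ cells or somatic cells carried the collagen transcripts was not tested.

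**Figure D5:**
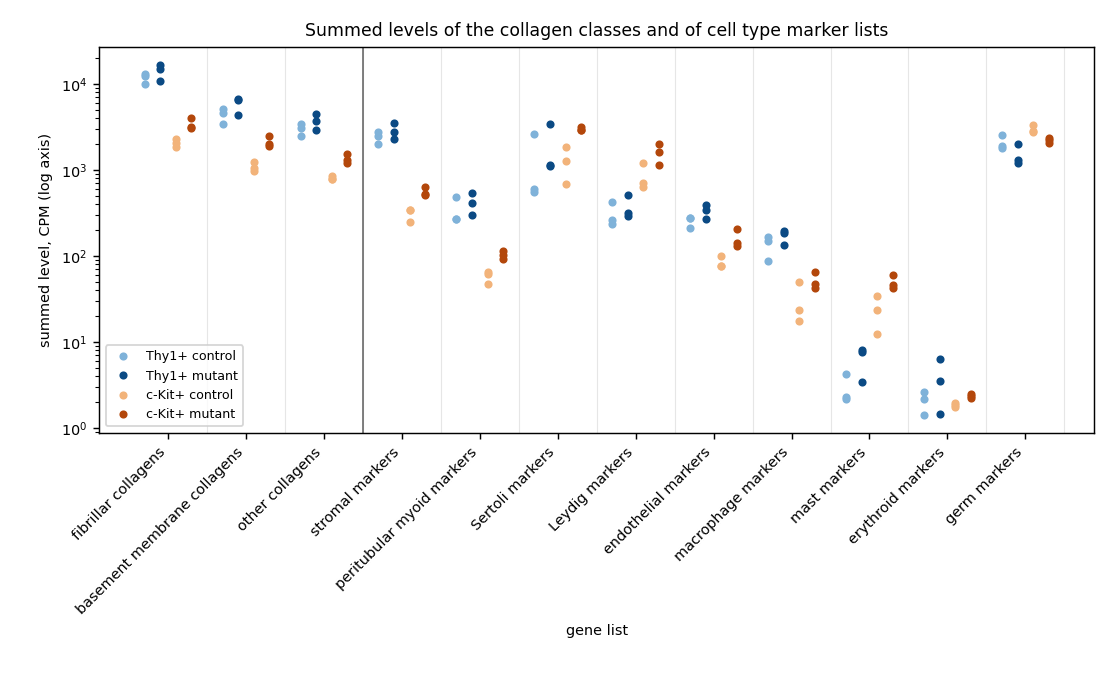
Summed level in CPM (log axis) of the 3 collagen classes, left of the vertical line, and of 9 lists of cell type markers, with 1 point per library in the color of its group. Stromal markers and all collagen classes are lowest in c-Kit+ control libraries (251 to 341 CPM for stromal markers), Sertoli markers are highest in replicate 1 among the Thy1+ libraries of each genotype, and germ cell markers go the other way between genotypes.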

How the data were processed

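RNA-seq counts of 12 libraries (4 groups of 3) were analysed, and the ChIP samples of the series were not used here. The authors trimmed reads with Trimmomatic 0.39, aligned them to mm10 with HISAT2 2.1.0 and deposited raw counts per gene over RefSeq exons from featureCounts (2.0.1 in the methods, 2.0.3 in the file header). The header shows the paired-end option without a strand option, so reads from both strands of overlapping genes cannot be told apart, and even counts in 65.6% to 69.5% of values from 1 to 19 show that both mates were mostly counted. Entrez IDs were matched to RefSeq symbols for 25275 of 27179 genes, and the 1904 without one took 0.511% to 0.776% of counts.

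Genes were kept with edgeR's filterByExpr, scaled by TMM and tested with the edgeR quasi-likelihood test (edgeR 4.0.16, limma 3.58.1, R 4.3.3) on the libraries of each comparison, and the interaction on all 12. A gene was called at a Benjamini-Hochberg adjusted p under 0.05 over all genes tested and an absolute log2 fold change over 0.5 (adjusted p alone for the interaction). SE is the absolute log2 fold change divided by the square root of F. CPM were computed from the counts with TMM library sizes and divided by the exon length in the file. With 3 libraries a group, a simulation with 200 genes changed by 1.5 on the log2 scale recovered 197 (c-Kit+ genotype), 193 (Thy1+ genotype), 194 and 194 (fractions) and 173 (interaction). It changed no genes at low counts and drew libraries without shared deviations by replicate number. Median collagen changes between genotypes were smaller, 0.73 in c-Kit+ and 0.27 in Thy1+ cells. The simulation therefore does not measure the power to find such changes. Ratios and shares were compared with exact permutation tests, and within pairs in a test added after the data were seen (SciPy 1.17.1, Python 3.11.15).

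The 25 genes given in every library were the 4 most abundant per kb of each class, in each genotype comparison the 3 highest and 3 lowest log2 fold changes, genes called against the direction of most called genes of their class, and the chain partners of types I, IV, V and VI. Of each pathway list the highest and lowest genes were named. Genes named beyond these were chosen after their values were seen. The members, classes and gene lists were chosen with earlier results of these data known.

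Libraries with the same replicate number correlated in their deviations from the group means, at 0.121 to 0.210 for the c-Kit+ genotypes, 0.399 to 0.646 for the Thy1+ genotypes and 0.173 to 0.425 for the control fractions, all over the limit of 0.1 by which numbers were taken as pairs. Mutant fractions did so for 1 of 3 pairs. The labels do not say what a number marks. Alternatives were the edgeR exact test used by the study, DESeq2 1.42.0, other size factors and filters, all libraries in 1 fit, the replicate number as a block, and leaving out each library.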

Additional observations from a re-analysis of the deposited data

How the results depend on the processing

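Counts of collagen genes called higher in the c-Kit+ genotype comparison and in both fraction comparisons stayed within 1.5 times under every alternative, and were 24 to 27, 28 to 29 and 27 to 30 when each library was left out in turn. The count called lower in c-Kit+ mutants was 1 with all 12 libraries in 1 fit and 1 to 3 with libraries left out, that called lower in control Thy1+ cells was 2 to 6, and that in mutant Thy1+ cells 4 to 5. In the Thy1+ genotype comparison, where 0 were called, 2 were higher and 1 lower with the edgeR exact test, 3 and 1 with DESeq2, 2 higher with all 12 libraries in 1 fit, and 8 higher and 3 lower with the replicate block. With that block, 2 genes passed in the interaction, where the numbers did not pair all libraries (*Col14a1* at 0.95 and *Col4a2* at 0.56, adjusted p = 0.0257 and 0.0305), *Col2a1* was added to the lower genes of the mutant fractions, and no collagen call of the control fractions changed. The median of the other collagens in control fractions was 1.71 with at least 1 CPM in 3 libraries, 1.53 with the block and 1.52 to 1.73 with libraries left out, and that in c-Kit+ mutants 0.54 to 0.79. Of the 10 ratios and shares, only the difference of the *Col4a1* to *Col4a2* ratio between fractions (-0.084) did not pass when permuted within pairs. The cause was not tested.

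Single genes whose value turned sign were not called in the main fit. *Col18a1* between mutant fractions was called lower, at -0.68, with mutant Thy1+ replicate 1 left out. *Col28a1* in c-Kit+ mutants was at -0.026 with the block. With libraries left out, it ran from -0.38 to 0.56 there and from -0.12 to 0.81 between mutant fractions, *Col7a1* from -0.010 to 0.091 in c-Kit+ and -0.045 to 0.22 in Thy1+ mutants, *Col14a1* from -0.17 to 0.078 in Thy1+ mutants, and *Col18a1* from -0.37 to 0.80 in Thy1+ mutants, -0.16 to 0.84 between control fractions and -0.68 to 0.020 between mutant fractions. Low counts limit the precision of *Col8a1*, *Col28a1* and *Col19a1*, whose means were 41.2, 35.8 and 18.3 counts.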
